A study of Homo sapiens with 9 samples.

Results

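Divergent promoters are stretches where a pair of protein-coding genes start close together on opposite strands and are read away from each other. They were taken from the hg19 GENCODE annotation as a minus-strand gene and a plus-strand gene whose canonical starts lie at most 1000 bp apart, with the minus-strand start to the left. The rule gave 894 pairs with 1788 genes among 18624 promoters of 19518 coding genes, so that 9.16% of the coding genes were in a pair. The 17171 single promoters, genes with no other coding start within 2000 bp, served as the comparison, and 559 further promoters entered only the fits over all promoters. The distance between the starts ran from 18 to 1000 bp with a median of 234 bp and quartiles of 126 and 398 bp. No measured value was used to choose the pairs.

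The mark was mapped in HEL, a human erythroleukemia line in long use, by CUT&RUN, which tethers micrococcal nuclease to antibody-bound chromatin and reads the DNA it cuts out. The 9 libraries were 3 of a non-targeting control (NTC) and 2 each of CRISPR knockouts (KO) of METTL3, METTL14 or WTAP, with no treatment in the labels. METTL3 is the catalytic subunit of the m6A RNA methyltransferase, METTL14 its partner in the complex and WTAP the subunit that holds the complex in nuclear speckles, and the study asked whether H3K4 methylation depends on this enzyme. How many guides or clones stood behind the KO cells of these libraries is not given in the sources used here.

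H3K4me3 is the trimethylation of lysine 4 of histone H3, placed by the SETD1 and KMT2 enzymes at the nucleosomes around active starts. Divergent promoters typically have a CpG island between the starts, lack a TATA box and serve housekeeping genes, among them many of DNA repair, mitochondria and translation. A nucleosome-free stretch between the starts is flanked by marked nucleosomes on both sides, so that the mark of both genes can form a continuous domain.

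The stretches between the starts are shown for 6 pairs that stand for the patterns described in the results. ATP5PF/GABPA and VPS52/RPS18 had peaks in every KO library and in no NTC library. SARS2/MRPS12 and MRPL47/NDUFB5 had peaks in all 9 libraries, HARS1/HARS2 had peaks in the NTC and METTL3-KO libraries, and SLC25A40/DBF4 had peaks in NTC libraries alone. Each is the plus strand of hg19 from 5′ to 3′, from the base after the minus-strand start to the base before the plus-strand start, and capitals mark every match on either strand to the letters of the ETS, NFY, NRF1, YY1, CRE and TATA box motifs given after the sequences.
ATP5PF/GABPA, chr21:27107216-27107282: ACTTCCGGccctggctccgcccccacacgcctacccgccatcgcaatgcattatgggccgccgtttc
VPS52/RPS18, chr6:33239654-33239851: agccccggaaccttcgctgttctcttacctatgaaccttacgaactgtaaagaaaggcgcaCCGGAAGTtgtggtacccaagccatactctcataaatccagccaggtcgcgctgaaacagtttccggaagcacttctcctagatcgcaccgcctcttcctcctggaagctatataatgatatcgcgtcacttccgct
SARS2/MRPS12, chr19:39421404-39421583: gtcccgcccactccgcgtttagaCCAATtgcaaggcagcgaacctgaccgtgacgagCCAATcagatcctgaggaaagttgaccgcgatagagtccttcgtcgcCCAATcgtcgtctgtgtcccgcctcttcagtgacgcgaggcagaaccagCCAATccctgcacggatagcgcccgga
MRPL47/NDUFB5, chr3:179322427-179322581: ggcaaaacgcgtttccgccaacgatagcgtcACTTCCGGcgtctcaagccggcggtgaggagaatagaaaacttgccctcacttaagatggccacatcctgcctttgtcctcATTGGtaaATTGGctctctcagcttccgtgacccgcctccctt
HARS1/HARS2, chr5:140070956-140071039: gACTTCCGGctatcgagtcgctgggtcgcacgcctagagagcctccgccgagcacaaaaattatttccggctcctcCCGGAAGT
SLC25A40/DBF4, chr7:87505676-87505807: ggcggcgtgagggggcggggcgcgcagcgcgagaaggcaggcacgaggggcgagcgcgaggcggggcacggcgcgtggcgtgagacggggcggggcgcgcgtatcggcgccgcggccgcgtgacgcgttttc

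The pairs differed from other promoters in sequence. In a window of 300 bases centred between the starts the pairs had a median GC content of 64%, against 66% in single promoters centred on their start. Their median CpG ratio, the CpG count over that expected from the C and G counts, was 0.884 against 0.787, and 91.3% of pairs against 66.1% of single promoters had a ratio over 0.6. The ETS motif (CCGGAAGT), the site of factors such as GABPA, was found in 15.9% of pairs, in 4.75% of single promoters and in 5.28% of all promoters. The NFY motif (CCAAT) was in 42.6% of pairs and 32.8% of all promoters, the NRF1 motif (GCATGCGC) in 6.82% and 3.66%, the YY1 motif (AAGATGGCG) in 4.92% and 2.84%, and the CRE (TGACGTCA) in 4.25% and 2.38%. The SP1 motif (GGGCGG) was in 72.8% of pairs and 61.2% of all promoters. The TATA box (TATAAA) was in 4.25% against 8.44% and the erythroid GATA motif (AGATAA) in 3.80% against 5.66%. Among promoters marked in all 3 NTC libraries, ETS (16.9% of pairs, 8.15% of single promoters) and NFY (40.9% and 31.8%) stayed apart. Median GC content was 65.7% and 70.3%. Other traits were closer there: CpG ratio 0.896 and 0.886, NRF1 5.62% and 5.30%, YY1 5.17% and 4.67%. The TATA box was in 2.92% and 2.96%, GATA in 2.92% and 2.61%, and SP1 turned to 74.8% and 78.6%. Letters were searched on both strands, matches of different motifs can overlap, and a match is a description of the letters alone.

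Some facts about the lists of peaks bear on every value. Each list gave peaks with a calibrated signal, the sum of which within 1 kb of either start is called the signal of a pair. The lists held 21724 to 21940 peaks per NTC library and 3159 to 9369 per KO library, and fragment totals were not given, so depth could not be used and precision rests on the few libraries. No list held a peak under 150 bp or over 2000 bp wide. Of 6 defining erythroid or megakaryocytic genes, 5 had a peak in at least 1 NTC library, with GATA1 and KLF1 in all 3. TAL1 had none in NTC but a peak in both METTL3-KO libraries. Of 3 lymphoid genes, PAX5 had a peak in all 3 NTC libraries and CD3E and CD79A had none in any library. A peak at the promoters of METTL3, METTL14 and WTAP does not check the knockouts, and both METTL3-KO libraries had one at each of the 3 genes.

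The pairs were marked more often than single promoters, and the gap was wider in KO cells. In NTC libraries 517.7 ± 6.11 pairs (mean ± SD, n = 3) had a peak, 57.9% of all pairs, against 41.8% of single promoters. The counts were 523, 519 and 511 in the NTC libraries, 638 and 647 in METTL3-KO, 443 and 290 in METTL14-KO and 244 and 264 in WTAP-KO. Both METTL3-KO libraries thus had more marked pairs than any NTC library, while the other 4 KO libraries had fewer. Relative to the NTC mean these are 124%, 70.8% and 49.1%, each with p = 0.2 in the two-sided exact permutation test, the smallest that 10 splits of 2 against 3 libraries allow. Over all 6 KO libraries the mean was 81.3% of NTC (exact permutation test, p = 0.429). A floor at 2095, the median signal of NTC peaks, gave 67.0% for METTL3-KO and 33.9% for all KO (p = 0.0238, exact permutation test), so that METTL3-KO was below NTC under that floor. It also gave 24.1% for METTL14-KO, 10.7% for WTAP-KO and 385% for METTL3-KO relative to the other KO libraries. Counting only peaks up to 1500 bp wide gave 108% for all KO. METTL3-KO libraries had 207% of the marked pairs of the other 4 KO libraries (p = 0.133, the smallest that 15 exact splits allow).

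Single promoters did not share the METTL3-KO excess. They numbered 7169 ± 87.5 in NTC, 4740 and 4504 in METTL3-KO, 2634 and 1575 in METTL14-KO and 1388 and 1577 in WTAP-KO. The share of pairs marked over the share of single promoters marked was 1.39 in every NTC library and 2.59 to 3.54 in the KO libraries, with means of 2.67 in METTL3-KO, 3.38 in METTL14-KO and 3.296 in WTAP-KO. All 6 KO libraries lay above all 3 NTC libraries, and the mean ratio was 2.25 times that of NTC (p = 0.0238 by exact permutation, which 84 splits cannot go below). This comparison was added after the counts had been seen.

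**Figure D1:**
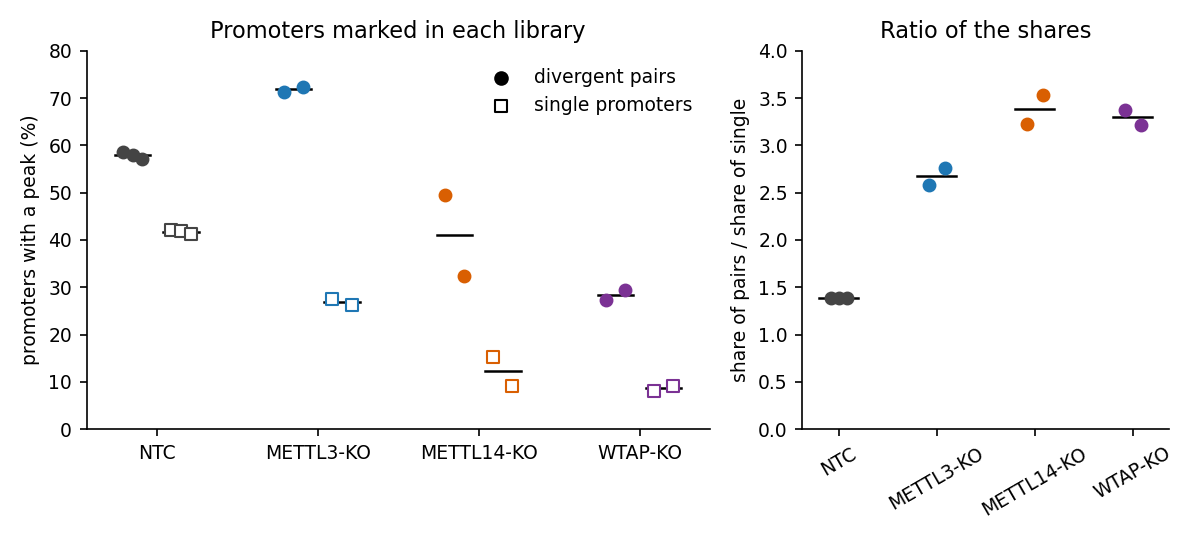
The left panel plots the percentage of promoters with a peak within 1 kb in each library, with filled circles for divergent pairs, open squares for single promoters and bars for group means, and the right panel the ratio of the 2 shares. METTL3-KO pairs lie above NTC pairs (71.4% and 72.4% against 57.2% to 58.5%), while every KO library lies below NTC for single promoters and above NTC for the ratio.

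Coverage of pairs by KO peaks was highest close to the midpoint between the starts. At the midpoint between the starts 44.2% of pairs were covered by a peak in NTC, 46.3% in METTL3-KO, 27.9% in METTL14-KO and 12.1% in WTAP-KO (group means over libraries). At 550 bp to the right the shares were 35.5%, 24.6%, 6.21% and 5.15%, and at 550 bp to the left 37.1%, 25.8%, 6.26% and 5.82%. METTL3-KO was thus at the NTC level in the centre and below it on both flanks. At single promoters the NTC profile had a lower shoulder upstream, with 20.02% covered 550 bp upstream and 24.4% at 550 bp downstream, and the KO profiles were below NTC at the start as well (13.9%, 6.60% and 3.14% against 27.1%).

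**Figure D2:**
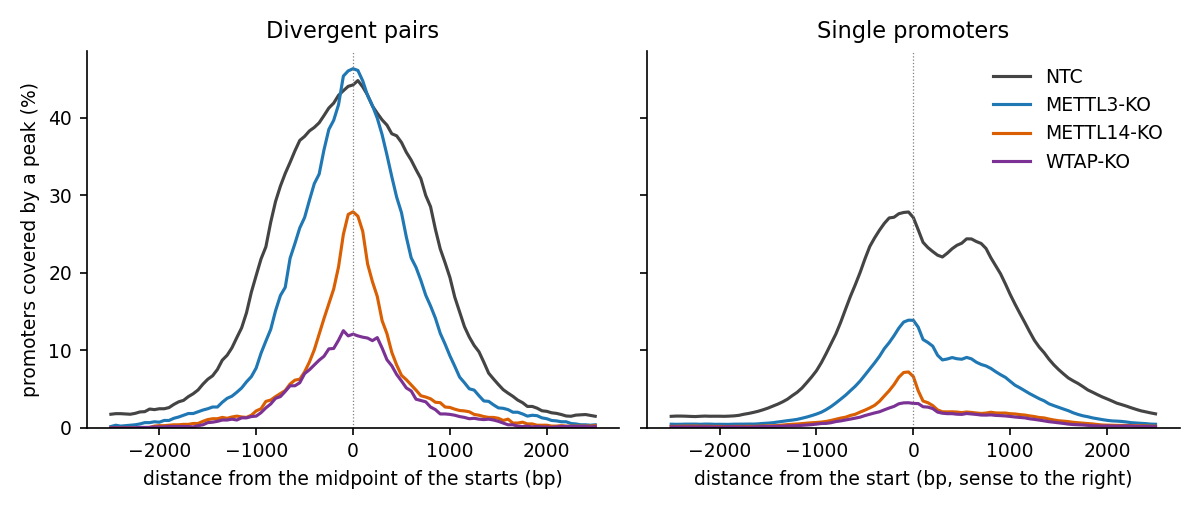
Percentage of promoters covered by a peak at each distance from the midpoint between the starts of divergent pairs (left) or from the start of single promoters (right), as the mean over the libraries of each group. At pairs the METTL3-KO line meets the NTC line in the centre and runs inside it on both flanks, while at single promoters it stays below NTC throughout.

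Among marked pairs, the share with the mark on both genes was lower in KO cells. METTL3-KO had more marked pairs than NTC (638 and 647 against 511 to 523), so its lower shares do not mean fewer such pairs. Of the pairs marked in a library, 81.8% ± 0.840 (n = 3) had a peak on both outer sides of the starts in NTC, against 65.5% in METTL3-KO, 55.1% in METTL14-KO and 43.8% in WTAP-KO. A continuous peak over both starts was found for 65.1% ± 2.56 of marked pairs in NTC and 50.7%, 45.3% and 30.3% in the 3 KO groups. Over the 6 KO libraries the means were 54.8% ± 10.2 and 42.1% ± 10.1, and each differed from NTC with p = 0.0238 in the exact permutation test. Peaks on the minus-strand side alone and on the plus-strand side alone were about as frequent as each other, 9.79% and 8.30% in NTC and 20.3% and 21.0% over the KO libraries. KO peaks at pairs were also narrower (median width 329 to 510 bp against 972 to 1040 bp in NTC), and the part of the peak width in these shares was not tested. Of the 351 pairs with both sides marked in all 3 NTC libraries, 116 kept both sides in both METTL3-KO libraries, 41 in both METTL14-KO libraries and 23 in both WTAP-KO libraries. No side was marked in either library of the group for 77, 215 and 278 of them. A loss of the same side in both libraries with the other kept was rarer. The minus-strand side alone was kept at 32 pairs in METTL3-KO, 7 in METTL14-KO and 10 in WTAP-KO, and the plus-strand side alone at 30, 7 and 8.

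Of the 894 pairs, 445 had a peak in all 3 NTC libraries, 145 in 1 or 2 and 304 in none. No peak in either library of the group was found for 27.9% of the 445 pairs in METTL3-KO, 61.6% in METTL14-KO and 80% in WTAP-KO. Where only NTC peaks at or over the floor of 2095 defined the pairs, the METTL3-KO share was 12.2%. Library by library the lost share was 34.8% and 34.6% in METTL3-KO, 62.5% and 79.8% in METTL14-KO, and 84.5% and 83.1% in WTAP-KO. The 6322 single promoters marked in all 3 NTC libraries lost more, 51.8%, 78.6% and 88.5%. No KO library at all had a peak at 121 of the 445 pairs (27.2%) and at 51.4% of these single promoters.

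Pairs had more NTC signal than single promoters, so the kept share was compared at equal NTC signal. The median signal of marked pairs was 6560, 6906 and 8108 in the NTC libraries, and its ratio to that of marked single promoters was 1.31 ± 0.0325 (n = 3). The 445 pairs were divided into 10 strata of equal size by mean NTC signal, and the kept share of single promoters was weighted to the same strata. The pairs then kept a peak more often by 15.5 and 18.9 percentage points in the METTL3-KO libraries, 12.7 and 7.48 in METTL14-KO and 4.68 and 4.78 in WTAP-KO. The kept shares behind the group means were 65.3% of pairs against 48.1% of single promoters in METTL3-KO, 28.9% against 18.8% in METTL14-KO and 16.2% against 11.4% in WTAP-KO. The mean difference was 10.7 points (SD 5.93, n = 6), positive in 6 of 6 libraries (two-sided exact permutation test within libraries, p = 0.0312, the smallest that 64 sign patterns allow). The difference ranged from 3.84 points with the same floor on peak signal to 14.9 points without matching, and it was 10.2 points in strata of NTC signal and CpG ratio and 11.5 points in strata of NTC signal and bases covered by NTC peaks, 2 matchings added after the data had been seen.

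The difference was not even over the strata, which were described without a test. In the lowest stratum (NTC signal 183 to 1930) METTL3-KO libraries kept 2.22% of pairs and 3.16% of single promoters. In the fifth (5752 to 6717) they kept 75% and 46.4%, and in the highest (15378 to 36229 in pairs) 100% and 90.04%. For METTL14-KO the highest stratum had 82.2% and 59.1% and for WTAP-KO 73.3% and 52.2%. Below an NTC signal of 8158 WTAP-KO kept at most 4.44% of pairs in any stratum and at most 4.53% of single promoters.

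**Figure D3:**
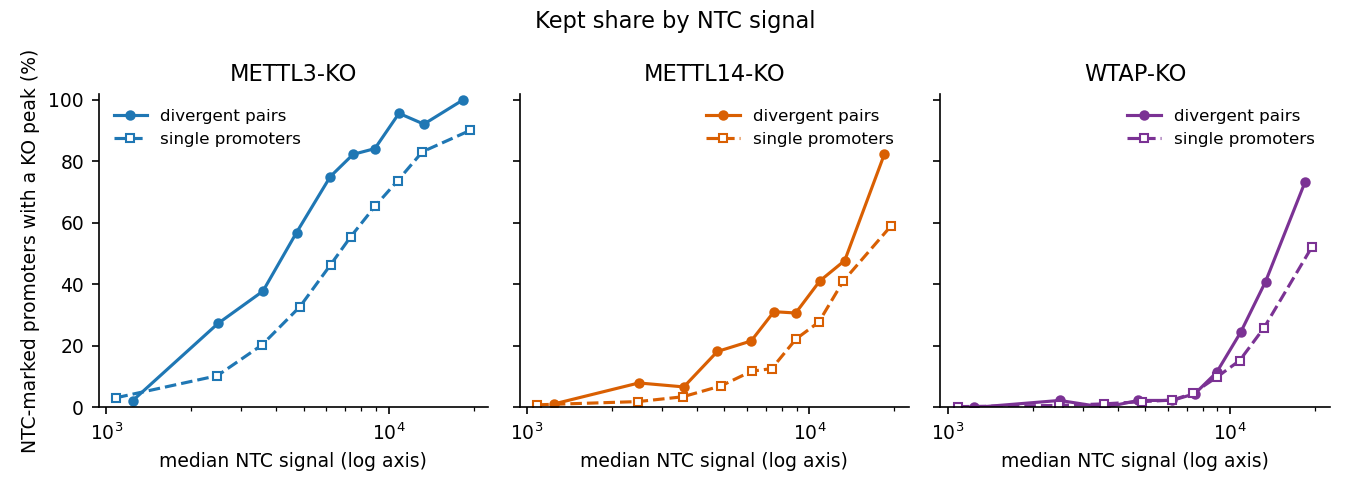
Percentage of promoters marked in all 3 NTC libraries that had a KO peak, as the mean of the 2 libraries of each KO group, for 10 strata of NTC signal placed at their median on a log axis. Filled circles with solid lines are divergent pairs (44 or 45 per stratum) and open squares with dashed lines single promoters (459 to 1122 per stratum). The METTL3-KO lines are apart over most of the range, and the WTAP-KO lines part only in the highest strata.

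The share marked also varied with the distance between the starts, as described here without a test. Pairs with starts up to 100 bp apart (164 pairs) were marked in 62.0% of cases in NTC, 71.3% in METTL3-KO, 31.4% in METTL14-KO and 24.1% in WTAP-KO (group means). Pairs with starts more than 400 bp apart (223 pairs) were marked in 55.6%, 71.3%, 44.2% and 32.5%. In METTL14-KO the ranges of the 2 libraries overlapped between these classes (23.2% to 39.6% and 36.3% to 52.0%), and in WTAP-KO they did not (23.8% to 24.4% and 31.4% to 33.6%). The window of a pair is wider where the starts are further apart, and its part in this difference was not tested.

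Pairs without an NTC peak carried much of the METTL3-KO mark. Of the 304 such pairs, 224 (73.7%) had a peak in both METTL3-KO libraries, 149 in both METTL14-KO libraries, 122 in both WTAP-KO libraries and 87 in all 6. Only 48 pairs had no peak in any library. Among the 9218 single promoters without an NTC peak, 12.1% had a peak in both METTL3-KO libraries. However, 85.2% of these single promoters had no peak in any library, against 15.8% of the 304 pairs. Where any KO library had a peak, both METTL3-KO libraries had one at 224 of 256 pairs and 1112 of 1360 single promoters. At the 224 pairs an NTC peak lay within 3 kb in 40 cases. In all 6 KO libraries the median extent and signal were higher at pairs without an NTC peak than at the other pairs, and the same order held at single promoters in all 6. In METTL3-KO their extent within the list was 1445 and 1363 bp (medians of the 2 libraries) with a signal of 5009 and 2944, against 556 and 512 bp and a signal of 1662 and 1050 at pairs with 3 NTC peaks. At single promoters the METTL3-KO extents were 1273 and 1185 bp against 479 and 440 bp, with signals of 4173 and 2297 against 1341 and 782. The median extent in the METTL14-KO libraries was 790 and 672 bp against 335 and 304.5 bp, and in the WTAP-KO libraries 446 and 657 bp against 329 and 396 bp. In the NTC libraries 8.97% ± 2.24 (n = 3) of the peaks at pairs were wider than 1800 bp, close to the widest the lists hold, against 0.430% ± 0.631 (n = 6) in KO libraries. Whether wider NTC regions were left out of the lists was not tested, and "no NTC peak" says only that none is listed.

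**Figure D4:**
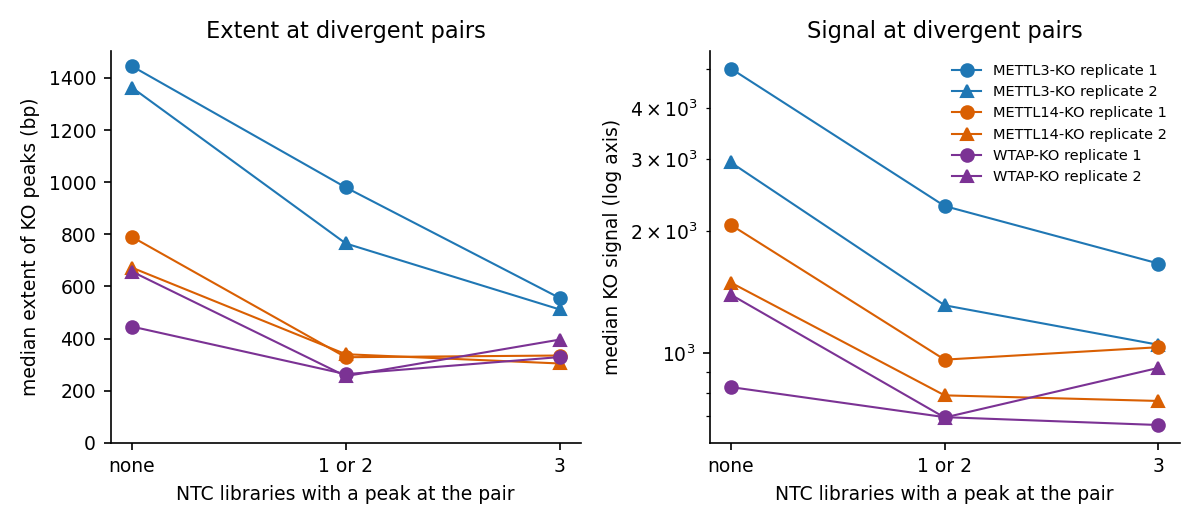
Median extent in bp (left) and median signal on a log axis (right) of the peaks at divergent pairs in each KO library, for pairs with a listed peak in no, 1 or 2, or 3 NTC libraries. The METTL3-KO medians fall from 1445 and 1363 bp at pairs without an NTC peak to 556 and 512 bp at pairs with 3, and all 6 libraries have their highest median extent and signal at pairs without an NTC peak.

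The signal of each promoter was then tested with limma over 10129 promoters with a peak in at least 2 libraries, 834 of them pairs, on log2(signal + 30.1), where 30.1 is the smallest promoter signal. A promoter without a peak counts as 0, so that the size of a change at such a promoter is set by the pseudocount. A promoter without a peak in NTC enters the fit through its KO peaks and can only rise, and the reverse holds for a promoter without a KO peak, so that calls at such pairs describe the lists and support nothing further. For all KO against NTC 452 pairs fell, beside 72.5% lower calls over all promoters tested, and 243 pairs rose, beside 15.1% (54.2% and 29.1% of the tested pairs). For METTL3-KO 356 pairs fell (all promoters 61.7%) and 230 rose (14.6%). For METTL14-KO 433 fell (68.0%) and 151 rose (8.25%), and for WTAP-KO 443 fell (68.4%) and 115 rose (6.71%). In each comparison the share of pairs that fell was below and the share that rose above that of all promoters. The 3 KO groups share the NTC libraries, so these counts are not independent.

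By that construction the direction of a call went with the NTC peaks. Of the 243 pairs that rose for all KO, 240 had no NTC peak and 3 had a peak in 1 or 2 NTC libraries. Of the 452 that fell, 442 had a peak in all 3 NTC libraries and 10 in 1 or 2. Only 3 of the 445 pairs with 3 NTC peaks did not pass the test. The median change of the tested pairs was -3.71 on the log2 scale, against -5.50 over all promoters tested and -5.63 over single promoters. These medians were -2.48, -3.12 and -3.19 with a pseudocount 10 times as large and -4.51, -7.94 and -8.16 with 0.1 times. Centring each library on the promoters with a peak in all 9 libraries moved the median of all promoters to -2.52 and the split to 284 pairs higher and 345 lower for all KO, beside 18.3% and 59.4% of all promoters tested. It was 268 and 222 for METTL3-KO (16.9% and 48.0%), 269 and 302 for METTL14-KO (17.2% and 54.9%), and 266 and 348 for WTAP-KO (17.5% and 55.6%). Centring shifts promoters without a peak as well, so calls at such promoters can come from the shift alone.

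At 364 pairs METTL3-KO and the other KO groups were apart. In the contrast of METTL3-KO with the other KO libraries, METTL14-KO and WTAP-KO weighted equally, 355 pairs were higher in METTL3-KO, beside 28.1% of all promoters tested, and 9 were lower, beside 0.553%. Of the 355, 193 had 3 NTC peaks and 158 had none. A pair with peaks in the METTL3-KO libraries alone enters the fit through them and can only be higher in METTL3-KO. How many of the 355 were such pairs was not counted. With a peak required in at least 3 libraries, 325 pairs were higher and 9 lower, beside 27.3% and 0.550% of all promoters tested. All 9 lower pairs had no NTC peak. After centring the split was 245 higher and 129 lower, while over all promoters tested it turned to 20.5% higher and 32.6% lower. Centring also shifts promoters without a peak, so a pair with no KO peak can be called lower in METTL3-KO through the shift alone. How many of the 129 were such pairs was not counted. Without the first METTL3-KO library 222 pairs were called.

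Some pairs had listed peaks in every KO library and none in NTC. All 6 KO values exceeded all 3 NTC values at 90 pairs (10.1% of pairs, 3 of them with any NTC peak) and at 373 single promoters (2.17%), and all 6 were below all 3 at 435 pairs (48.7%) and 36.4% of single promoters. The 5 with the largest fitted rise, chosen for these values and given as a description, were listed at 0 in NTC and had peaks in all 6 KO libraries. OARD1/NFYA, whose right-hand gene codes for a subunit of the CCAAT-binding factor NFY, had signals of 21164 and 13750 in METTL3-KO, 9641 and 8325 in METTL14-KO, and 5869 and 7219 in WTAP-KO. RPUSD4/FAM118B, with a mitochondrial pseudouridine synthase on the left, had 15522 and 11438, 8186 and 7610, and 8282 and 8864 in the same order. TTI1/RPRD1B, with the TTI1 partner of the kinase mTOR, had 16259 and 14035, 9443 and 4155, and 7885 and 10326. All 3 pairs had their highest values in METTL3-KO and none in NTC.

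The last 2 of the 5 are among the sequences printed. ATP5PF/GABPA joins a subunit of ATP synthase and an ETS factor, has starts 68 bp apart with an ETS motif between them, and had signals of 23241 and 13921 in METTL3-KO, 5618 and 5335 in METTL14-KO, and 4999 and 5421 in WTAP-KO. VPS52/RPS18, with a small ribosomal subunit protein on the right, had 16085 and 12547, 7705 and 5987, and 4801 and 5479. The METTL3-KO values did not overlap with those of the other KO libraries at either pair. ATP5PF/GABPA was higher in METTL3-KO than in the other KO groups by 1.75 on the log2 scale and VPS52/RPS18 by 1.26. These differences are a description, because the pairs were chosen by their KO values.

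A further set kept a peak in all 9 libraries. These were 50 pairs (5.59%) and 351 single promoters (2.04%). Their median signal was 15041, 14307 and 17690 in the NTC libraries, 5892 and 3569 in METTL3-KO, 2551 and 1387 in METTL14-KO, and 862 and 1367 in WTAP-KO. All KO medians were below all NTC medians and were 13.5% of NTC (exact permutation test of the median log2 signal, p = 0.0238), or 29.4%, 12.05% and 6.95% by group. Single promoters of this kind were at 12.2%. The step between values, read as the worth of 1 fragment after calibration, was 1.14 to 1.32 in NTC and 0.320 to 1.07 in KO libraries. After division by the step the signal of these pairs was 35.4% in KO relative to NTC (p = 0.0714 by exact permutation). On that scale the first METTL3-KO library (12791) was above the first and second NTC libraries (11428 and 10965). Single promoters of this kind were at 32.2% (p = 0.0238 by exact permutation). The pairs with a peak in all 9 libraries had a median GC content of 60.7%, against 69.3% for the 121 pairs with NTC peaks and no KO peak and 60% for the 87 with KO peaks alone.

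The 3 of these 50 with the smallest log2 change for all KO had KO values on both sides of the NTC values. They were chosen by that change, so it is given as a description without p-values. CRYZL1/ITSN1, with the endocytic scaffold intersectin on the right, had 18155, 17243 and 22288 in NTC, 28213 and 20299 in METTL3-KO, 18797 and 9911 in METTL14-KO, and 9223 and 12339 in WTAP-KO, a log2 change of -0.33 (SE 0.243). With the 500 bp window its direction turned to higher in KO. PURG/WRN, with a RecQ helicase on the right, had 1898, 2397 and 2883 in NTC, 7894 and 4123 in METTL3-KO, 2363 and 2206 in METTL14-KO, and 161 and 1720 in WTAP-KO (log2 change -0.28, SE 0.708), and its direction also turned with the 500 bp window. FDXACB1/CFAP68 had 25142, 26193 and 31086 in NTC, 27685 and 19313 in METTL3-KO, 53004 and 38188 in METTL14-KO, and 3514 and 6833 in WTAP-KO (log2 change -0.67, SE 0.2505). Its METTL14-KO values were above, and its WTAP-KO values below, every NTC value. Centred on promoters kept in all libraries all 3 pairs were higher in KO, by 2.65, 2.71 and 2.32 in the order given.

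The 3 that changed most fell in every KO library. ACIN1/C14orf119, with a splicing-associated chromatin protein on the left, had 15228, 14243 and 18360 in NTC, 3546 and 2452 in METTL3-KO, 270 and 489 in METTL14-KO, and 253 and 178 in WTAP-KO. BBIP1/SHOC2, with a scaffold of RAS signalling on the right, had 25437, 25162 and 27971 in NTC, 4433 and 2123 in METTL3-KO, 696 and 632 in METTL14-KO, and 414 and 1317 in WTAP-KO. CTDNEP1/ELP5, with a subunit of the Elongator complex on the right, had 14909, 13220 and 21087 in NTC, 3364 and 2992 in METTL3-KO, 778 and 510 in METTL14-KO, and 158 and 184 in WTAP-KO. The log2 changes were -4.59 (SE 0.294), -4.47 (SE 0.416) and -4.42 (SE 0.263), and METTL3-KO was the least lowered group at each. The pairs were chosen for these changes, which are given as a description without p-values.

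The 121 pairs with NTC peaks and no KO peak reached moderate NTC signals. The 5 strongest were IFT140/CRAMP1 (9249 ± 1308, SD, n = 3), SLC25A40/DBF4 (8980 ± 555), DUSP15/TTLL9 (8848 ± 1949), DCUN1D2/TMCO3 (8839 ± 1118) and PDZD7/SFXN3 (8732 ± 1139). IFT140 serves transport in cilia, DBF4 activates the kinase that fires replication origins, and TTLL9 and PDZD7 are genes of cilia or stereocilia. They were chosen for being listed at 0 in all 6 KO libraries.

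**Figure D5:**
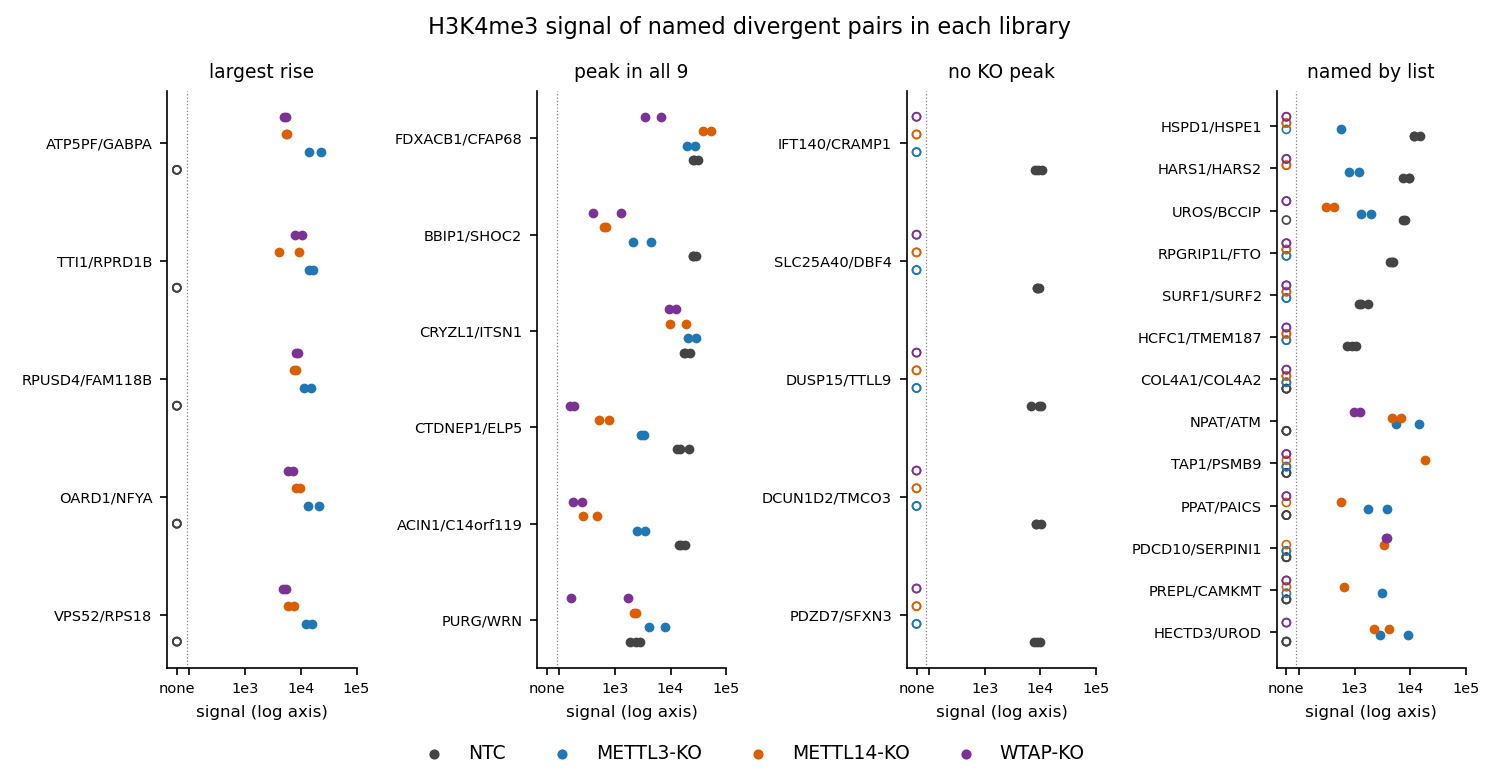
Signal of named divergent pairs in each library on a log axis, 1 point per library coloured by group, with libraries without a peak drawn as open circles left of the dotted line. The pairs of largest rise have no NTC peak, the pairs without a KO peak have NTC signals alone, and those with a peak in all 9 libraries include CRYZL1/ITSN1 near its NTC level and ACIN1/C14orf119 far below it.

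The well-known divergent pairs did not behave alike. HSPD1/HSPE1, the mitochondrial chaperonin and its co-chaperonin, had 11481, 11729 and 14809 in NTC and a peak in KO cells in the second METTL3-KO library alone (571, adjusted p = 0.000164). HARS1/HARS2, the cytosolic and mitochondrial histidyl-tRNA synthetases, had 7488, 9365 and 9486 in NTC, 1223 and 804 in METTL3-KO and none in the other groups (adjusted p = 2.82e-07). SURF1/SURF2, with an assembly factor of cytochrome c oxidase, had 1716, 1223 and 1320 in NTC and none in KO, so no p-value is given for it. These 3 pairs were lower in each KO group.

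Of the other well-known pairs, most had KO peaks only. They entered the fit through those peaks, so their values are a description and no p-value is given. NPAT/ATM, the coactivator of histone genes and the kinase of the DNA damage response, had 14319 and 5524 in METTL3-KO, 6909 and 4738 in METTL14-KO and 968 and 1271 in WTAP-KO. PPAT/PAICS, which share the purine synthesis pathway, had 3791 and 1749 in METTL3-KO and 574 in 1 METTL14-KO library. PDCD10/SERPINI1 had 3448 in 1 METTL14-KO library and 3804 and 3717 in WTAP-KO, with no peak in METTL3-KO. PREPL/CAMKMT had 3139 in 1 METTL3-KO library and 649 in 1 METTL14-KO library. TAP1/PSMB9, of antigen processing, had a peak in 1 METTL14-KO library (18704) and was not tested. COL4A1/COL4A2, the type IV collagen pair, had none in any library.

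Pairs with genes of heme synthesis, m6A and H3K4 methylation were few. UROS/BCCIP, with uroporphyrinogen III synthase, had 8092 and 7519 in 2 NTC libraries and none in the first, 2008 and 1292 in METTL3-KO, 429 and 306 in METTL14-KO and none in WTAP-KO (adjusted p = 0.309). HECTD3/UROD, with uroporphyrinogen decarboxylase, had no NTC peak, 9015 and 2866 in METTL3-KO, 4096 and 2275 in METTL14-KO and none in WTAP-KO. RPGRIP1L/FTO, with an RNA demethylase that removes m6A, had 4313, 4868 and 4793 in NTC and none in KO. HCFC1/TMEM187, with a subunit of H3K4 methyltransferase complexes, had 1074, 883 and 718 in NTC and none in KO. No p-value is given for pairs with peaks on the NTC or the KO side alone, because such calls describe the lists. No erythroid transcription factor of the list lay in a pair.

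Genes of DNA repair and replication were in 40 pairs, of which 18 had 3 NTC peaks and 18 had none. Among 39 tested 18 fell (46.2%) and 15 rose (38.5%) for all KO, beside 54.2% and 29.1% of the tested pairs and 72.5% and 15.1% of all promoters tested. In addition, 16 of the 18 pairs without an NTC peak had a peak in both METTL3-KO libraries, beside 224 of all 304 such pairs (73.7%). ZAR1L/BRCA2, with a protein of homologous recombination, had 20029, 17961 and 18944 in NTC, 2789 and 1152 in METTL3-KO, 710 in 1 METTL14-KO library and 778 in 1 WTAP-KO library (adjusted p = 0.00723). CHEK2/HSCB, a checkpoint kinase beside an iron-sulfur cochaperone, had 13714, 11696 and 14622 in NTC, 2277 and 239 in METTL3-KO, 940 in 1 METTL14-KO library and none in WTAP-KO.

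Mitochondrial ribosomal protein genes were in 25 pairs, and 8 of these had a peak in all 9 libraries, beside 50 of all 894 pairs. For all KO 16 fell (64%) and 7 rose (28%), beside 54.2% and 29.1% of the tested pairs and 72.5% and 15.1% of all promoters tested. In METTL3-KO 16 (64%) were higher than in the other KO groups, beside 42.6% of the tested pairs and 28.1% of all promoters. PPP1R10/MRPS18B had 37193, 33497 and 37998 in NTC, 9327 and 3241 in METTL3-KO, 3106 and 1547 in METTL14-KO, and 2003 and 1423 in WTAP-KO (log2 change -3.71, SE 0.392). SARS2/MRPS12, which also holds the mitochondrial seryl-tRNA synthetase and has 4 CCAAT boxes between its starts, had 22615, 19603 and 25606 in NTC, 10221 and 7655 in METTL3-KO, 5842 and 3003 in METTL14-KO, and 1653 and 3289 in WTAP-KO (log2 change -2.34, SE 0.310). Both were lower in every KO library, and SARS2/MRPS12 was 0.65 higher on the log2 scale after centring.

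Respiratory chain genes were in 33 pairs, of which 16 fell (48.5%) and 12 rose (36.4%) for all KO, beside 54.2% and 29.1% of the tested pairs and 72.5% and 15.1% of all promoters tested. MRPL47/NDUFB5, with a complex I subunit on the right, had 17693, 16290 and 21239 in NTC, 8429 and 5468 in METTL3-KO, 2680 and 1202 in METTL14-KO, and 201 and 1419 in WTAP-KO (log2 change -3.25, SE 0.615). NDUFA2/IK, a complex I subunit beside a splicing protein, had 10583, 10445 and 12077 in NTC, 4205 and 2047 in METTL3-KO, 1742 and 411 in METTL14-KO, and 403 in 1 WTAP-KO library. All 12 pairs without an NTC peak had a peak in both METTL3-KO libraries, beside 224 of all 304 such pairs (73.7%).

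Splicing genes were in 30 pairs. Of 29 tested, 14 fell (48.3%) and 6 rose (20.7%) for all KO, beside 54.2% and 29.1% of the tested pairs and 72.5% and 15.1% of all promoters tested. U2AF1L4/PSENEN, a U2AF paralog beside a gamma-secretase subunit, had 15667, 15817 and 18701 in NTC, 8322 and 5734 in METTL3-KO, 3378 and 2231 in METTL14-KO, and 1625 and 1661 in WTAP-KO (log2 change -2.39, SE 0.200), and was 0.59 higher after centring. XPC/LSM3, an excision repair protein beside a U6 snRNA-binding protein, had 15088, 13621 and 13511 in NTC, 2284 and 1718 in METTL3-KO, none in METTL14-KO, and 635 and 637 in WTAP-KO.

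Zinc finger genes were in 31 pairs. Of 29 tested, 19 fell (65.5%) and 6 rose (20.7%) for all KO, beside 54.2% and 29.1% of the tested pairs and 72.5% and 15.1% of all promoters tested. SCGB2B2/ZNF302 had 19716, 17123 and 22720 in NTC and 335 to 5857 in the KO libraries. VRK3/ZNF473, with a zinc finger protein of histone mRNA processing, had 18822, 12967 and 16726 in NTC, 4601 and 2098 in METTL3-KO, 2079 and 124 in METTL14-KO and none in WTAP-KO.

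Proteasome genes were in 8 pairs. Of 7 tested, 4 fell (57.1%) and 1 rose (14.3%) for all KO, beside 54.2% and 29.1% of the tested pairs and 72.5% and 15.1% of all promoters tested. PSMA7/SS18L1 had 15536, 13226 and 19174 in NTC, 3334 and 1616 in METTL3-KO and none in the other groups, and SIRT3/PSMD13 had 8613, 6451 and 10828 in NTC, 1708 and 386 in METTL3-KO and none in the others. Of 7 pairs with tRNA synthetases 5 fell (71.4%) and 1 rose (14.3%), beside the same shares.

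Histone genes made 11 pairs, of which 1 had 3 NTC peaks and 6 had none. Among 8 tested 1 fell (12.5%) and 5 rose (62.5%) for all KO, beside 54.2% and 29.1% of the tested pairs and 72.5% and 15.1% of all promoters tested. The 2 with the highest mean NTC signal varied widely between NTC libraries. H2BC12/H2AC12 had 1814 and 32026 in 2 NTC libraries and none in the second, 4875 and 1964 in METTL3-KO, 1555 and 1387 in METTL14-KO, and 765 and 1311 in WTAP-KO (log2 change 0.48, SE 2.08). H2AC25/H2BC26 had 3011 and 15779 in 2 NTC libraries, 1837 and 571 in METTL3-KO, 187 in 1 METTL14-KO library and none in WTAP-KO (log2 change -3.04, SE 2.01). Replication-dependent histone genes are near-identical copies of each other, and the part of alignment to more than 1 copy in these values was not tested.

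The patterns also differed in sequence. The ETS motif was in 22.99% of the 87 pairs with KO peaks alone, 18.0% of the 50 with a peak in all 9 libraries, 13.2% of the 121 without a KO peak and 2.08% of the 48 without any peak, beside 15.9% of all pairs. The NFY motif was in 52.9%, 50%, 40.5% and 33.3%, and the SP1 motif in 63.2%, 62.0%, 81.0% and 66.7%. The median GC content of the 4 sets was 60%, 60.7%, 69.3% and 63.0%, and its part in these shares was not tested.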

How the data were processed

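H3K4me3 CUT&RUN libraries of HEL cells (3 NTC, 2 each of METTL3-KO, METTL14-KO and WTAP-KO) were grouped by the sample labels. The authors aligned paired ends with Bowtie to hg19 and to sacCer3 of a yeast spike-in, applied spike-in calibration, dropped duplicates with Picard and called peaks per library. The deposited lists give a signal per peak in calibrated coverage units, not counts. Within every library 100% of the values up to 400 were whole multiples of a step to within 0.1 of it, and the step moved between libraries. Depth is unknown.

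The first base of a peak was taken as 0-based, which no source states, and all peaks fitted the chromosomes of the reference. The canonical start was the tagged Ensembl transcript of GENCODE, and 645 readthrough genes were left out of 20163. Of 902 candidates 894 remained after genes with several partners stayed with the nearest. The signal of a promoter is the sum of its peaks within 1 kb. A pair with any such peak near either start counts as marked. The signal was tested with limma 3.58.1 (R 4.3.3, trend, Benjamini-Hochberg at 0.05, over promoters with a peak in at least 2 libraries, 4 groups in 1 model). Libraries were compared by exact permutation tests (scipy 1.17.1, Python 3.11.15). The labels name no separate cultures and no batch, so p-values measure the spread between these libraries, which may be technical. The code of this fit was run on simulated data with known changes and normal errors. Such errors differ from lists with many absent peaks, and no result here rests on that run.

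Members, gene lists and tests were chosen with earlier results of these data known. Named pairs were those with genes of 5 short lists (well-known pairs, H3K4 writers, m6A machinery, heme and iron, erythroid factors), the 5 strongest without a KO peak, the 3 least and 3 most lowered with peaks in all 9 libraries, the 5 largest rises, and the 2 of each further list with the highest mean NTC signal. The well-known pairs were 10. Alternatives are given in the closing section.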

Additional observations from a re-analysis of the deposited data

Results flagged for a closer look

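The change against NTC differed between METTL3-KO and the other KO groups at 364 pairs, by the limma contrast of METTL3-KO with the other KO libraries, METTL14-KO and WTAP-KO weighted equally. Of these, 355 were higher in METTL3-KO, beside 28.1% of all promoters tested, and 9 were lower, beside 0.553%. After centring 245 were higher and 129 lower, beside 20.5% and 32.6% of all promoters tested. The contrast tests the difference itself, and the NTC libraries cancel in it.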

How the results depend on the processing

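A floor at the median signal of NTC peaks turned METTL3-KO marked pairs from 124% to 67.0% of NTC and brought all KO to 33.9%. Only peaks up to 1500 bp wide, chosen after seeing the data, turned all KO to 108%. The share of NTC-marked pairs lost in METTL3-KO was 12.2% with NTC peaks above the median, 29.1% and 27.1% with 500 bp and 2 kb windows and 37.7% with peaks up to 1500 bp. In WTAP-KO it was 73.9%, 79.0% with the 2 kb window and 88.4%. The NTC signal ratio was 1.27 for the highest peak. The signal at pairs with a peak in all 9 libraries was 35.4% of NTC when divided by the step. The numbers of the replicates did not pair the libraries (correlations of deviations from -0.0729 to 0.0847 over 12 pairs of libraries). With the replicate block this signal was 14.4% and the ratio of marked shares 2.25 (each p = 0.5, exact), and limma called 652, 580, 579, 573 and 270 pairs against 695, 586, 584, 558 and 364. Leaving out each library gave ranges of 72.6% to 88.2% for all KO marked pairs, 123.2% to 125% for METTL3-KO, 56.0% to 85.6% for METTL14-KO, 47.1% to 51.0% for WTAP-KO and 193% to 242% for METTL3-KO against the other KO groups. It gave 2.19 to 2.32 for the ratio of marked shares, 26.8% to 34.8%, 60.2% to 79.8% and 79.0% to 84.5% for the lost shares, 9.03 to 11.9 points for the kept share, 1.30 to 1.33 for the NTC signal ratio and 10.99% to 14.9% for the kept signal. The limma counts ranged from 618 to 684, 515 to 635, 562 to 592, 548 to 575 and 222 to 434, with 222 without the first METTL3-KO library. Without a KO library the kept share had p = 0.0625, the smallest 5 libraries allow (exact). Without any 1 NTC library the ratio of marked shares and the signal at pairs with a peak in all 9 libraries each had p = 0.0714 (exact), the smallest that 2 NTC libraries allow. Of 734 values of 41 named pairs under the alternatives, 696 kept direction and side of the threshold, 20 lost the call, 11 gained it and 7 turned. Those that turned were PURG/WRN (2.71 centred, 6.03 with the 500 bp window), CRYZL1/ITSN1 (2.65 and 8.72), FDXACB1/CFAP68 (2.32), U2AF1L4/PSENEN (0.59) and SARS2/MRPS12 (0.65), all centred. The sizes at 500 bp are set by the pseudocount. The causes were not tested.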
